A study of Mus musculus with 9 samples.

Results

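Gene expression was compared between cells cultured for 3 days on OP9-DL1 with 1 µM Compound E and cells cultured for 3 days on OP9-GFP, with 3 arrays on each side. These are 6 of the 9 arrays of the study, chosen by their titles, and the remaining 3 came from OP9-DL1 without inhibitor. All cultures began with LSK cells, the lineage-negative, Sca-1-positive, c-Kit-positive fraction of bone marrow that holds hematopoietic stem and early progenitor cells, sorted from wild-type C57/Bl6 mice. OP9 is a bone marrow stromal line used as a feeder: OP9-GFP is the control feeder, OP9-DL1 carries the Notch ligand Delta-like 1, and only non-adherent cells were taken for RNA. The comparison asks what remains, or overshoots, when receptor cleavage is blocked on the ligand feeder. Its groups differ in the feeder line and in the inhibitor at once, and none of the 9 arrays came from OP9-GFP with Compound E. The contributions of feeder line and inhibitor therefore cannot be told apart. The labels do not state whether the replicates are separate cultures or animals, and the p-values therefore describe the spread among these arrays, which may be of technical origin.

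A Notch receptor that binds a ligand on a neighbouring cell is cut first by an ADAM protease and then, within the membrane, by γ-secretase. The freed intracellular domain enters the nucleus, joins the DNA-binding protein RBPJ and switches on target genes such as those of the Hes and Hey families. In bone marrow progenitors the pathway is best known for starting T cell development at the expense of the B lineage. Compound E inhibits γ-secretase, an enzyme that also cuts many other membrane proteins.

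The values below are log2 signals as deposited, and a difference of 1 is 2-fold. The brightest of 27 probe sets for bacterial transcripts, to which mouse RNA should not bind, read 3.64, and a value no higher than that is termed background. That maximum came from replicate 2 with Compound E. The highest bacterial value per array was 3.41 to 3.64 with Compound E and 3.17 to 3.30 on OP9-GFP. Array medians were 4.78 to 4.82 with Compound E and 4.88 to 4.90 on OP9-GFP. Dll1, which encodes Delta-like 1, was at background in both groups, so its probe set could not check the feeder labels. The stromal genes Cxcl12 (12.21 on OP9-GFP, 12.08 with Compound E) and Sparc (11.43 and 11.53), named after their values were seen, were among the bright genes in both groups, so the harvested RNA held transcripts that feeder cells make. In such bulk RNA, fewer cells of a type and less RNA per cell cannot be told apart.

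Of 18193 genes, 2208 (12.1%) were higher and 1927 (10.6%) lower with Compound E on OP9-DL1 than on OP9-GFP, at a limma adjusted p below 0.05. At least 2-fold changes were fewer, 110 genes higher (0.605%) and 137 lower (0.753%). These counts depend on brightness and probe set: they were 52 and 39 once 32 was added to every linear value, a step that reduces differences at low signal. Lower genes numbered 71 among genes above the median brightness and 84 with the probe sets of a gene averaged. Over all genes the median difference was 0.05, the median standard error 0.10, and the median SD between replicates 0.09 on OP9-GFP and 0.12 with Compound E. The 3 values of one group lay wholly to one side of the other group's for 34.8% of genes. Among the 4909 genes at background in both groups, 172 were called higher and 16 lower, and calls at that brightness are no measure of a change. OP9-DL1 without inhibitor, set against the same OP9-GFP arrays, had 2888 genes (15.9%) called higher and 3046 (16.7%) lower, 748 and 502 of them at least 2-fold. Both comparisons share the OP9-GFP arrays, so their values are given side by side and no overlap between them is drawn.

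**Figure D1:**
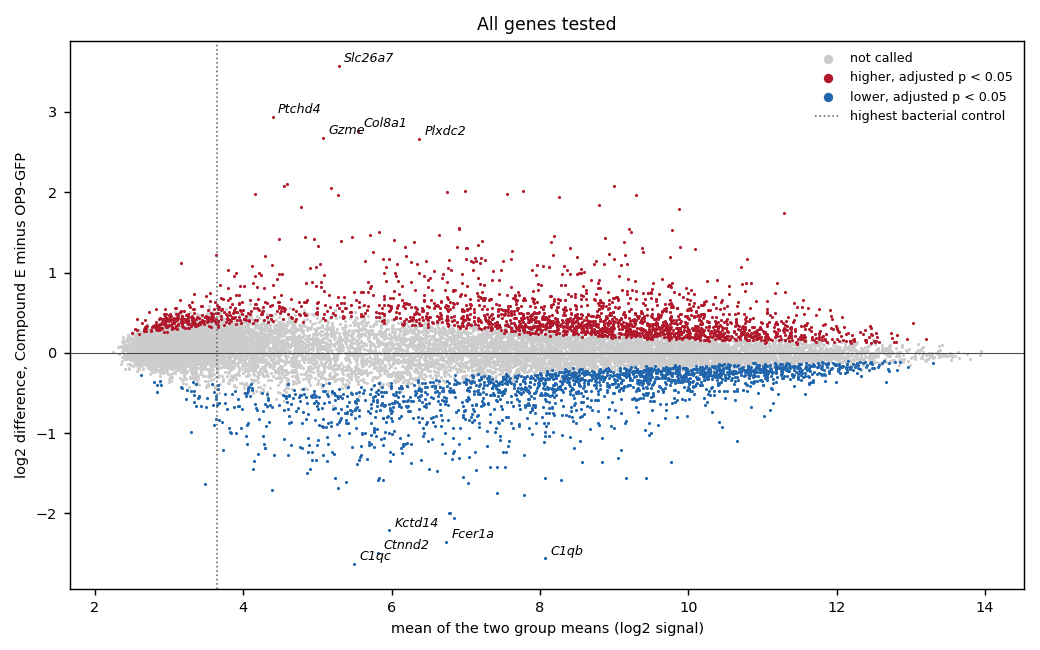
Log2 difference between Compound E on OP9-DL1 and OP9-GFP (y axis) against the mean of both group means (x axis, log2 signal) for each of 18193 genes; red and blue points have a limma adjusted p below 0.05 and the dotted line is the highest bacterial control, 3.64. Most genes lie near 0, the 5 largest rises and 5 largest falls carry their names, and Slc26a7 is highest at 3.58.

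The 10 largest rises and 10 largest falls were taken among called genes without overlap between both groups and with the higher group above background, so those features were set by the choice. The largest rise in the deposited values was that of Slc26a7, which encodes an anion exchanger. Its values were 3.41, 3.39 and 3.69 on OP9-GFP and 7.19, 7.10 and 6.95 with Compound E. The control mean lay at background, so only a bound can be given: with each control array set to no less than 3.64 the inhibited cultures were at least 10.7-fold higher (limma adjusted p = 3.72e-11). The measured difference was 3.58. On OP9-DL1 without inhibitor the gene read 9.20, 9.13 and 9.01, so the inhibited cultures lay between the other groups. Col8a1, a collagen chain, lay between them as well: 4.48, 3.97 and 4.06 on OP9-GFP, 6.89, 6.96 and 6.96 with Compound E, and 8.73, 8.87 and 8.50 on OP9-DL1. Its rise was 2.76 ± 0.14 (SE).

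Others of the 10 largest rises had their highest level on OP9-DL1 alone. Ptchd4, a patched-domain gene, went from 2.61, 3.19 and 2.98 to 5.87, 5.94 and 5.78, against 7.31, 7.21 and 7.10 on OP9-DL1. Gzme, a granzyme protease, went from 3.38, 3.93 and 3.91 to 6.84, 6.20 and 6.21, against 7.66, 7.62 and 7.75. Ptchd4 too was at background on OP9-GFP, and was at least 4.67-fold higher with Compound E by the same bound. For both genes every OP9-DL1 array lay above every inhibitor array. Plxdc2, a transmembrane protein with a plexin domain, rose by 2.67 to 7.71 ± 0.20 (SD, n = 3) and stood at 8.26 ± 0.12 on OP9-DL1. From background means Ms4a4d, of the tetraspanning MS4A family, rose at least 3.99-fold, and Esm1, a proteoglycan secreted by endothelial cells, at least 3.86-fold, while their differences for OP9-DL1 against OP9-GFP were 2.70 and 3.54.

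A further 3 of the 10 rises had a different order. Pla2g7, the secreted phospholipase that inactivates platelet-activating factor, read 7.91, 7.91 and 8.05 on OP9-GFP, 9.49, 9.59 and 9.47 on OP9-DL1 and 10.07, 10.02 and 9.99 with Compound E. The inhibited cultures were therefore the highest group. Entpd3, an enzyme that degrades extracellular nucleotides, read 4.25, 4.15 and 4.08 on OP9-GFP and 5.97, 6.43 and 6.22 with Compound E, with 3.66, 2.98 and 3.15 on OP9-DL1. Ambp, the precursor of α1-microglobulin and bikunin, read 5.71, 6.09 and 6.12 on OP9-GFP, 8.03, 8.02 and 7.93 with Compound E and 5.19, 5.25 and 5.52 on OP9-DL1. For Entpd3 and Ambp the control feeder lay between the groups that shared OP9-DL1.

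**Figure D2:**
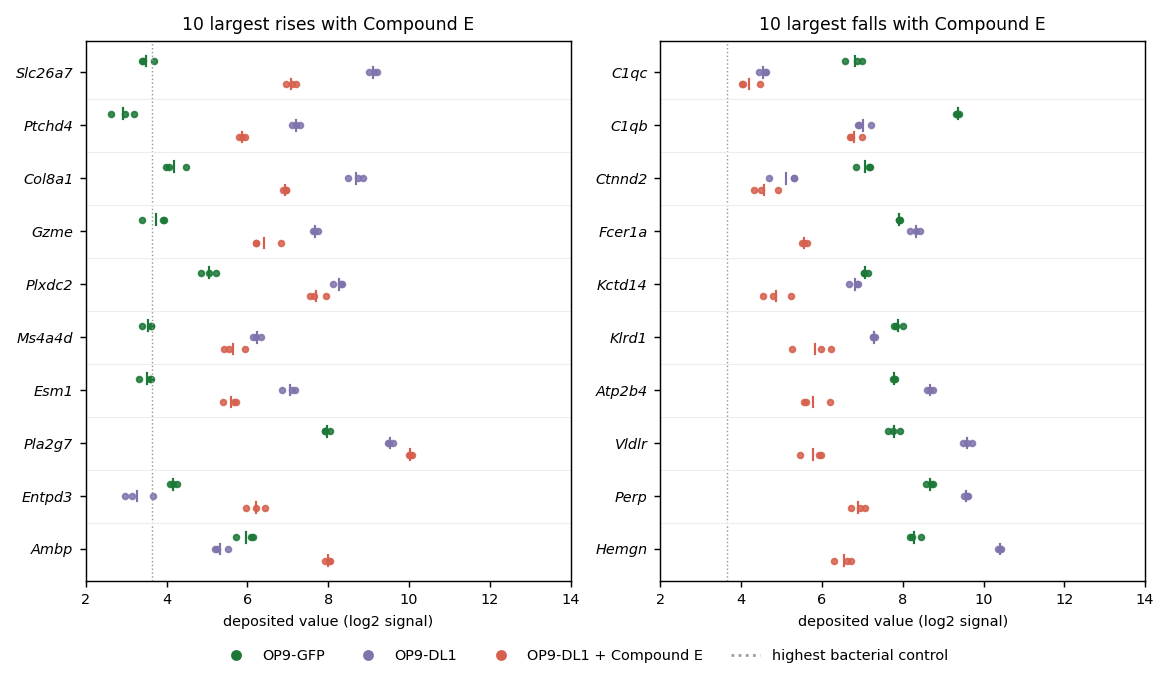
Deposited log2 signal (x axis) of the 10 largest rises and the 10 largest falls in Compound E cultures against OP9-GFP; each point is 1 array, short bars are means of 3 arrays, and the dotted line is the highest bacterial control. Of the rises, 7 have their highest level on OP9-DL1 alone, whereas C1qb and C1qc are low in both OP9-DL1 groups.

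The largest falls were those of C1qc and C1qb, which encode chains of the complement component C1q made by macrophages. C1qc read 6.98, 6.87 and 6.57 on OP9-GFP and 4.01, 4.05 and 4.48 with Compound E, and it fell by 2.63 ± 0.16 (SE), or 6.18-fold (limma adjusted p = 1.17e-08). C1qb read 9.35, 9.40 and 9.31 on OP9-GFP and 6.98, 6.69 and 6.71 with Compound E, and it fell by 2.56. On OP9-DL1 alone the means were 4.55 for C1qc and 7.01 for C1qb, close to those with inhibitor. C1qa, the third chain, was at background in all groups. Ctnnd2, a δ-catenin, fell by 2.50 with Compound E and likewise stood low on OP9-DL1, with group means of 7.06, 4.57 and 5.10 on OP9-GFP, with Compound E and on OP9-DL1.

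Fcer1a encodes the IgE-binding chain of the high-affinity receptor of mast cells and basophils. It read 7.91, 7.92 and 7.91 on OP9-GFP, 5.50, 5.54 and 5.63 with Compound E and 8.33, 8.18 and 8.44 on OP9-DL1. The inhibited cultures alone were low, and the fall was 5.12-fold. Others with the same order, lowest with Compound E and highest on OP9-DL1, were the plasma membrane calcium pump gene Atp2b4 (7.79, 5.78 and 8.68 on OP9-GFP, with Compound E and on OP9-DL1), the lipoprotein receptor Vldlr (7.78, 5.78 and 9.60), the desmosomal p53 target Perp (8.67, 6.90 and 9.58) and the erythroid nuclear factor Hemgn (8.29, 6.55 and 10.40). Klrd1, the CD94 receptor of NK cells, fell by 2.06, and its values with Compound E were 6.23, 5.26 and 5.97 against 7.84, 7.77 and 8.01. Kctd14, a BTB-domain gene, fell by 2.21.

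Of these 20 genes, several had other probe sets that moved much less. The other probe sets differed by 0.45 for Slc26a7, -0.00 for Ptchd4, 0.30 to 0.59 for Col8a1, -0.51 for Ctnnd2, -1.62 to -0.71 for Kctd14 and -1.34 to -0.30 for Vldlr. With all probe sets averaged the differences were 2.02 for Slc26a7, 1.47 for Ptchd4, 1.22 for Col8a1, -1.50 for Ctnnd2, -1.34 for Kctd14 and -0.99 for Vldlr, and each was still called. Adding 32 to the linear values gave 1.95 for Slc26a7, 1.19 for Ptchd4, 1.62 for Col8a1, 1.37 for Gzme, 0.91 for Ms4a4d, 0.89 for Esm1, 1.09 for Entpd3, -1.52 for C1qc, -1.57 for Ctnnd2 and -1.44 for Kctd14, also still called. Under either measure these genes have another order by size.

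The gene lists read from here on were chosen with earlier results of these data known. Their counts beside the shares of all genes are descriptions and not tests of enrichment. The genes of the Notch pathway were taken by role, beginning with the receptors. None of the 4 receptor genes passed the test. Notch1 read 9.49, 9.57 and 9.49 on OP9-GFP and 9.53, 9.58 and 9.54 with Compound E. Notch2, the brightest of the receptor probe sets, read 12.36, 12.36 and 12.41 and then 12.51, 12.38 and 12.49. Notch3, a receptor that is itself a target of the pathway, read 6.39, 6.26 and 5.96 on OP9-GFP, 5.96, 6.18 and 6.22 with Compound E and 9.05, 8.85 and 8.83 on OP9-DL1. The inhibited and control arrays overlapped for these 3 genes. The Notch3 difference was -0.08, with a 95% interval from -0.34 to 0.17, beside a difference of 2.71 for OP9-DL1 over OP9-GFP. Notch4 was at background with Compound E and its difference of -0.40 had a limma adjusted p of 0.0665. That call changed with the setting: it passed with quantile normalization (0.0177) and without OP9-GFP replicate 3 (0.032), and Notch2 passed without Compound E replicate 2 (0.0368).

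Among the ligands Jag1, which encodes Jagged 1, was the 1 gene called. It read 8.22, 8.28 and 8.23 on OP9-GFP, 8.88, 8.63 and 8.64 with Compound E and 10.24, 10.17 and 10.19 on OP9-DL1. The rise of 0.47 ± 0.07 (SE) was small beside the difference of 1.96 between OP9-DL1 and OP9-GFP, and the 3 groups did not overlap. Jag2, the other Jagged ligand, differed by -0.26 (adjusted p = 0.135, limma), and Dll1, Dll3, Dll4 and Dlk1, a noncanonical ligand, had means at background in both groups.

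Of 21 genes for the processing and transcription machinery, 7 were higher and 2 lower, with a median of 0.13 (12.1% and 10.6% of all genes, with a median of 0.05). γ-Secretase itself consists of presenilin, nicastrin, APH1 and PEN-2. Psen2, a catalytic presenilin, rose from 8.34, 8.40 and 8.27 to 8.72, 9.03 and 8.67, by 0.47. Ncstn, nicastrin, rose from 8.16, 8.22 and 8.16 to 8.57, 8.76 and 8.47, by 0.42. Neither overlapped between groups, and on OP9-DL1 their differences from OP9-GFP were 0.01 and -0.31. Aph1b (0.49), named after its value was seen, rose as well, while Aph1a (0.07) and the PEN-2 gene Psenen (0.03) did not pass the test. Numb, an adaptor that restrains Notch receptors, rose by 0.46, and Lfng, the fringe enzyme that adds sugars to the receptor, by 0.31. Lfng stood at 9.63, 9.48 and 9.54 on OP9-GFP, 9.85, 9.87 and 9.87 with Compound E and 8.18, 8.23 and 8.17 on OP9-DL1, with no overlap.

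Of 13 Notch targets 2 (15.4%) were lower and none higher with Compound E, where 10.6% of all genes were lower, a share near that of the targets. The median difference was 0.04, against a median of 1.56 for OP9-DL1 over OP9-GFP. Nrarp, a target whose protein feeds back on the receptor complex, read 6.62, 6.59 and 6.62 on OP9-GFP, 5.27, 4.99 and 4.82 with Compound E and 9.27, 9.43 and 9.19 on OP9-DL1. The inhibited cultures were the lowest group without overlap, and against OP9-GFP the gene fell by 1.58 ± 0.12 (SE) with a limma adjusted p of 1.15e-07. Its other probe set differed by -0.48, and with both averaged the difference was -1.03, still called. Myc, the growth regulator, fell by 0.81 from 8.31, 8.25 and 8.15 to 7.50, 7.55 and 7.21, and read 9.20, 9.22 and 9.42 on OP9-DL1. These were the same order of groups as for Nrarp.

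The other 11 targets did not pass the test. Hes1, a transcriptional repressor, read 4.12, 3.99 and 3.70 on OP9-GFP, 4.21, 3.94 and 3.77 with Compound E and 5.74, 6.27 and 6.15 on OP9-DL1. Hey1, a related repressor, read 4.60, 4.75 and 4.59, then 4.64, 5.42 and 4.68 with Compound E, where replicate 2 stood apart, and 7.10, 6.98 and 7.16 on OP9-DL1. The Notch regulator Dtx1 (-0.03), the interleukin 2 receptor chain Il2ra (0.08) and the T cell factor Gata3 (0.10) were at background in the inhibited and control groups. Hes5 differed by 0.22. Heyl (0.22), Hey2 (-0.20) and Ptcra, the pre-T cell receptor chain (0.13), were also at background in both of these groups. Differences at that brightness are no measure of a change or of its absence. Hey2, at background throughout, nevertheless passed without Compound E replicate 1 (limma adjusted p = 0.0489). For Hes1 the 95% interval of the difference was -0.32 to 0.40.

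**Figure D3:**
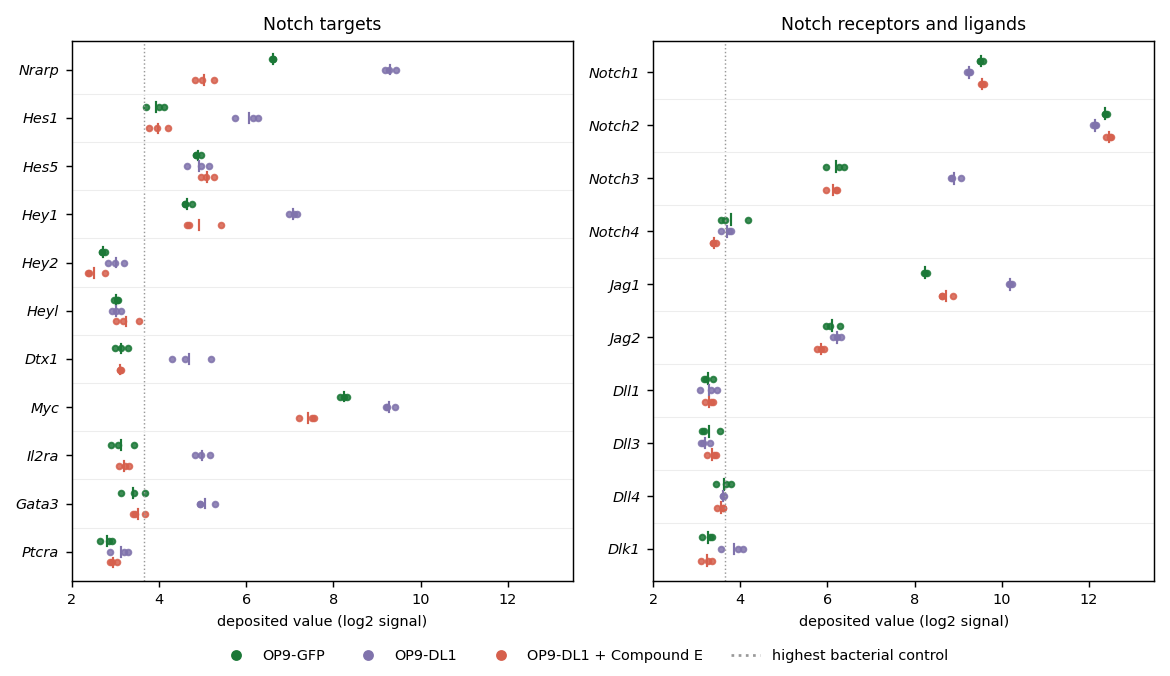
Deposited log2 signal (x axis) of Notch targets, left, and Notch receptors and ligands, right; each point is 1 array, short bars are means of 3 arrays and the dotted line is the highest bacterial control. Nrarp and Myc lie lowest with Compound E, Jag1 lies between the other groups, and Hes1 and Notch3 overlap between Compound E and OP9-GFP.

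Other substrates of γ-secretase were read next, since the inhibitor acts on that enzyme and not on Notch alone. Of 28 genes 9 were higher and 4 lower, with a median of 0.15 (12.1% and 10.6% of all genes). Il1r2, the decoy receptor for interleukin 1, read 5.91, 5.69 and 5.62 on OP9-GFP, 7.66, 7.80 and 7.77 with Compound E and 7.73, 7.67 and 7.75 on OP9-DL1. It rose 4.01-fold, and its values overlapped between both groups on the ligand feeder. Sorl1, a sorting receptor, rose by 0.44 from 11.12, 11.12 and 11.13 to 11.60, 11.53 and 11.56, and stood lower on OP9-DL1, at 10.76, 10.76 and 10.80. Lrp8, a receptor of the same lipoprotein family as Vldlr, fell by 0.50, or by 0.30 with its probe sets averaged.

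Megakaryocyte and platelet genes were lower in the inhibited cultures than on the control feeder. Of 31 measured genes 23 fell and 1 rose, where 10.6% of all genes fell, and the list median was -0.56. The same list had a median of 1.5 for OP9-DL1 over OP9-GFP. Its mean signal was 8.66 to 8.70 over the OP9-GFP arrays, 8.22 to 8.26 with Compound E and 10.13 to 10.16 on OP9-DL1. Itgb3, the integrin β3 chain of the platelet fibrinogen receptor, read 11.18, 11.19 and 11.19 on OP9-GFP, 10.47, 10.52 and 10.55 with Compound E and 12.40, 12.38 and 12.37 on OP9-DL1. Every inhibitor array was below every control array, and the fall was 0.68 ± 0.04 (SE).

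Pf4, platelet factor 4, read 11.46 on all 3 OP9-GFP arrays and 10.82, 10.82 and 10.87 with Compound E, and it fell by 0.62. Equal values such as these lower the spread behind a p-value. Selp, the platelet adhesion molecule P-selectin, fell by 0.85 from 9.60, 9.61 and 9.57 to 8.76, 8.59 and 8.87. Rab27b, needed for the release of platelet granules, fell by 0.80, and its OP9-DL1 arrays read 11.71, 11.75 and 11.78 against 10.18, 10.22 and 10.35 on OP9-GFP. Tubb1, the platelet β-tubulin, named after its value was seen, was the 1 gene that rose: 7.62, 7.61 and 7.58 on OP9-GFP, 8.22, 8.08 and 8.37 with Compound E and 10.35, 10.26 and 10.30 on OP9-DL1.

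The erythroid list overlaps with the megakaryocyte list in the transcription factor genes Gata1 and Gfi1b. Gata1 read 7.09, 7.09 and 7.11 on OP9-GFP, 6.31, 6.22 and 6.27 with Compound E and 9.28, 9.18 and 9.28 on OP9-DL1, and it fell by 0.83. Gfi1b, a repressor required in both lineages, fell by 0.91. Of 21 erythroid genes 9 fell and none rose, where 10.6% of all genes fell and 12.1% rose. The list median was -0.17, and 6 were at background. Car2, carbonic anhydrase 2, fell by 1.56 from 10.08, 10.28 and 10.26 to 8.66, 8.47 and 8.80, and read 11.85, 11.86 and 11.93 on OP9-DL1. Here too the inhibited cultures were the lowest of the 3 groups. The globin gene Hba-a1, named after its value was seen, did not pass the test (0.11).

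Of 17 mast cell and basophil genes 9 fell and 1 rose, where 10.6% of all genes fell and 12.1% rose. Fcer1a was among those that fell, and the list median was -0.27. The 1 that rose, Tpsab1, was at background and lost its call in 6 alternatives. Ms4a2, the signalling β chain of the receptor whose α chain is Fcer1a, read 7.86, 7.84 and 7.84 on OP9-GFP, 6.08, 6.14 and 6.46 with Compound E and 8.86, 9.04 and 8.90 on OP9-DL1. It fell by 1.62 ± 0.10 (SE), and its other probe set differed by -1.55. Cpa3, the mast cell carboxypeptidase, fell by 1.42 from 8.13, 8.13 and 8.15 to 6.93, 6.62 and 6.60. Mcpt8, a basophil protease, read 11.23, 11.21 and 11.20 on OP9-GFP, 10.08, 10.19 and 10.06 with Compound E and 11.31, 11.24 and 11.34 on OP9-DL1. The untreated feeders differed by 0.09, and the inhibited cultures alone stood apart. Gzmb, granzyme B, fell by 1.26, with Compound E values of 4.36, 5.25 and 4.19 against 6.04, 5.96 and 5.57 on OP9-GFP and 11.26, 11.30 and 11.20 on OP9-DL1, and with 32 added it fell by 0.66. Mcpt1, named after its value was seen, was at background on OP9-GFP (2.52) and with Compound E (2.56), against 7.64 on OP9-DL1.

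The sequence upstream of Ms4a2 is shown because GATA factors, whose genes Gata1 and Gata2 fell here, bind the letters AGATAA. The run is the 250 bases before the start of the gene in RefSeq's assembly GRCm38.p6, at chr19:11623720-11623969 on the minus strand, 5′ to 3′, with capitals for AGATAA or its reverse complement TTATCT.

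Ms4a2: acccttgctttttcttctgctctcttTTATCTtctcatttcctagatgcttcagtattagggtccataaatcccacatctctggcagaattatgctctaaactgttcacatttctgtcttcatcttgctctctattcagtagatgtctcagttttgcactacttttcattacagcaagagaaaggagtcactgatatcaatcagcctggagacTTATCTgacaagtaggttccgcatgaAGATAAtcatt

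The window held 3 matches. Of 32851 promoter windows of that length, 9.99% held at least 1 match on either strand. For list members only the first listed window of each gene was searched. It held a match in 4 of 14 mast cell genes and 7 of 16 erythroid genes. For megakaryocyte genes the count was 4 of 24, and for hematopoietic stem cell genes 0 of 21. A match is a description of the letters and not a bound site.

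Of 25 genes of hematopoietic stem cells 18 fell and none rose, with a median of -0.45, against 10.6% of all genes that fell. The list had a median of 0.82 for OP9-DL1 over OP9-GFP. Gata2, a regulator of stem cells that also stands in the mast cell list, read 10.07, 10.11 and 9.96 on OP9-GFP, 8.92, 9.28 and 9.24 with Compound E and 11.89, 11.88 and 11.83 on OP9-DL1. It fell by 0.90. Angpt1, angiopoietin 1, fell by 0.60 from 9.83, 9.87 and 9.80 to 9.35, 9.18 and 9.18, and Ctnnal1, an α-catenin-like gene, fell by 0.87. All 3 were lowest with inhibitor and highest on OP9-DL1. Hoxa9, a homeobox factor of progenitors, differed in its order: 8.61, 8.58 and 8.43 on OP9-GFP, 7.66, 7.53 and 7.69 with Compound E, and 8.12, 8.32 and 8.18 on OP9-DL1. Its fall of 0.92 was -0.58 with its probe sets averaged. The angiopoietin receptor gene Tek (-1.34), the homeobox gene Meis1 (-1.25) and the c-Kit gene Kit (-0.80), which were named after their values were seen, also fell.

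**Figure D4:**
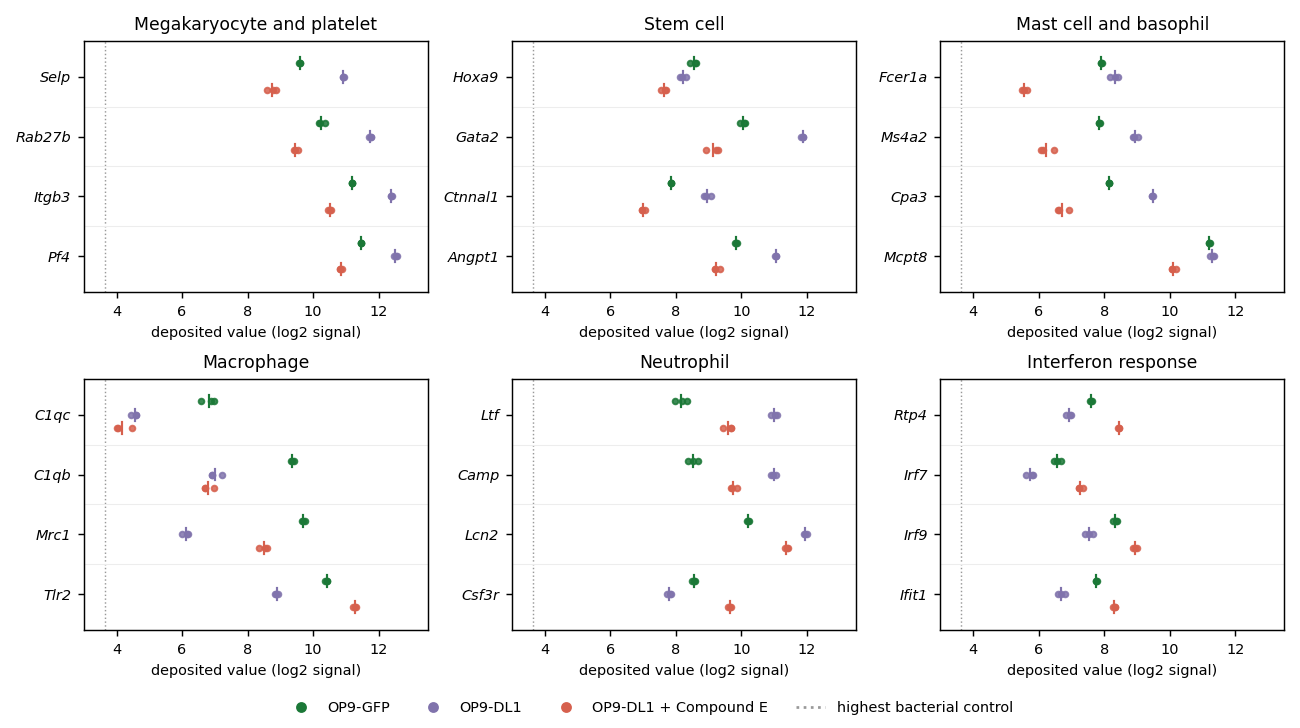
Deposited log2 signal (x axis) for the 4 named genes of smallest p in each of 6 gene lists. Each point is 1 array, short bars are means of 3 arrays and the dotted line is the highest bacterial control. Megakaryocyte and mast cell genes lie lowest with Compound E, neutrophil granule genes lie above OP9-GFP, and interferon-response genes lie highest with Compound E.

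Of 20 early T cell genes 4 fell, 1 rose and 15 did not pass the test, where 10.6% of all genes fell and 12.1% rose. The median was 0.06, and 7 were at background. Cd7, a surface receptor of early T cells, read 5.48, 5.43 and 5.25 on OP9-GFP, 4.49, 3.94 and 4.19 with Compound E and 7.98, 7.63 and 7.93 on OP9-DL1, and it fell by 1.18. The T cell receptor segment Trbv13-2 fell by 1.05 and the signalling adaptor Lat by 0.54. With 32 added Cd7 fell by 0.55 and Trbv13-2 by 0.54. Tox, a nuclear factor of T cell development, rose from 4.12, 3.79 and 4.42 to 5.55, 5.55 and 5.56, against 7.27, 7.18 and 7.12 on OP9-DL1. This rise of 1.44 was not shared by its other probe sets, which differed by 0.13 to 0.26, and was 0.61 with all of them averaged. With Compound E Ccr7 (0.15) and Trbv1 (0.20), both chosen once their values had been seen, were at background, against 7.52 and 8.99 on OP9-DL1.

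Among 18 B cell genes 4 were higher (22.2%) and 3 lower (16.7%), with a median of 0.08, where 12.1% of all genes were higher and 10.6% lower. Dntt, the terminal transferase of lymphoid progenitors, read 6.50, 6.43 and 6.54 on OP9-GFP, 7.73, 7.93 and 7.83 with Compound E and 8.58, 8.38 and 8.58 on OP9-DL1. The inhibited cultures lay between the others, and the rise was 1.34. Igll1, a surrogate light chain, rose by 0.82, with values of 4.88, 5.86 and 5.62 against 4.68, 4.68 and 4.54. Its other probe set differed by 0.00, and the average was 0.41. Il7r, the interleukin 7 receptor, fell by 1.06 and Cd79b, a chain of the B cell receptor complex, by 0.52, and both were also lower on OP9-DL1 than on OP9-GFP (-1.14 and -0.81).

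Of 14 NK and cytotoxic genes 4 fell and none rose, with a median of 0.04, where 10.6% of all genes fell, and 7 were at background. Besides Klrd1 and Gzmb, which is also in the mast cell list, Klrk1, the activating receptor NKG2D, fell by 1.07, or by 0.51 with 32 added. Nkg7, a cytotoxic granule protein, read 9.91, 10.02 and 9.86 on OP9-GFP, 9.15, 9.29 and 9.45 with Compound E and 11.75, 11.74 and 11.67 on OP9-DL1. It fell by 0.64 with no overlap.

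Monocyte, macrophage and dendritic cell genes split. Of 33 genes 12 rose and 9 fell, with a median of 0.08, where 12.1% of all genes rose and 10.6% fell. The same list had a median of -1.24 for OP9-DL1 over OP9-GFP. Those that fell included C1qb, C1qc and Mrc1, the mannose receptor, which read 9.68, 9.66 and 9.76 on OP9-GFP, 8.34, 8.54 and 8.59 with Compound E and 6.01, 6.17 and 6.16 on OP9-DL1. Mrc1 thus lay between the other groups, 1.21 below OP9-GFP. Tlr2, a receptor for bacterial lipoproteins, was highest with Compound E, at 11.29, 11.32 and 11.22 against 10.43, 10.44 and 10.36 on OP9-GFP and 8.94, 8.85 and 8.87 on OP9-DL1. Named after their values were seen, the hemoglobin scavenger receptor gene Cd163 (-1.68), the engulfment receptor gene Mertk (-1.02) and the MHC class II genes H2-Aa (-0.33), H2-Ab1 (-0.39) and H2-Eb1 (-0.58) fell. Averaged over its probe sets H2-Aa was not called (adjusted p = 0.0622, limma), and with 32 added Cd163 fell by 0.92 and Mertk by 0.68. The integrin αM gene Itgam (0.91), the macrophage marker Adgre1 (0.64), the Fc receptor gene Fcgr1 (0.56) and Cd68 (0.34) rose. Lyz2 (0.01), Apoe (0.01) and Gpnmb (0.03) did not pass the test.

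Of 23 neutrophil granule and granulocyte genes 12 rose and 6 fell, where 12.1% of all genes rose and 10.6% fell. The list median was 0.29. Ltf, lactoferrin of the secondary granules, read 8.20, 8.33 and 7.96 on OP9-GFP, 9.68, 9.69 and 9.43 with Compound E and 11.02, 10.89 and 11.08 on OP9-DL1. The rise was 1.43 ± 0.09 (SE). Camp, the cathelicidin peptide precursor, rose by 1.22 and Lcn2, lipocalin 2, by 1.17, and all 3 secondary granule genes lay between the control feeder and OP9-DL1. Csf3r, the receptor for granulocyte colony-stimulating factor, had another order: 8.54, 8.50 and 8.58 on OP9-GFP, 9.65, 9.69 and 9.58 with Compound E and 7.83, 7.73 and 7.84 on OP9-DL1. The genes that fell, named after their values were seen, were Mpo (-0.17), Elane (-0.31), Prtn3 (-0.23) and Ctsg (-0.21) of the primary granules, Ms4a3 (-0.13) and the eosinophil granule gene Prg2 (-1.24). The call of Ms4a3 was lost in 8 alternatives, and those of Mpo and Ctsg with no intensity trend in the model. Prg2 moved furthest of the 6, from 8.19, 8.20 and 8.08 to 6.80, 6.94 and 7.02.

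The test called 11 of 21 interferon-response genes higher and 1 lower, with a median of 0.30, where 12.1% of all genes rose. For OP9-DL1 over OP9-GFP the list median was -0.89. Rtp4, a chaperone induced by interferon, read 7.57, 7.58 and 7.63 on OP9-GFP, 8.41, 8.46 and 8.45 with Compound E and 6.98, 6.82 and 6.96 on OP9-DL1. It rose by 0.84 ± 0.08 (SE). Irf7, which amplifies interferon production, rose by 0.70 from 6.68, 6.46 and 6.56 to 7.24, 7.22 and 7.35. Irf9, the DNA-binding part of the complex that interferon receptors activate, rose by 0.59, and Ifit1, an antiviral RNA-binding protein, by 0.55. In all 4 genes the inhibited cultures were the highest group and OP9-DL1 the lowest. Mx1, an antiviral GTPase named after its value was seen, fell by 0.36, with 8.94 ± 0.06 (SD, n = 3) on OP9-GFP, 8.52, 8.57 and 8.64 with Compound E and 6.04, 5.55 and 5.68 on OP9-DL1. That call was lost in 6 alternatives, with adjusted p up to 0.0976 (limma).

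The promoter of Ifit1 is shown because these genes are read through the interferon-stimulated response element, searched here on either strand as GAAA, any 2 bases and GAAA again. The window is the 250 bases upstream of the gene in GRCm38.p6, chr19:34640639-34640888 on the plus strand, 5′ to 3′, and capitals mark the element.

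Ifit1: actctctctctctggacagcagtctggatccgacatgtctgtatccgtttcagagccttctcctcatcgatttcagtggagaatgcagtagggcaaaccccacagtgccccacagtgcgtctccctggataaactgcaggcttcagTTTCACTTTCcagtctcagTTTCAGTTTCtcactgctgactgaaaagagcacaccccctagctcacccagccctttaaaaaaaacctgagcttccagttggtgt

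It held 2 matches, both in the reverse direction. A match stood in the first listed window of 8 of 16 interferon-response genes and in 2.98% of all windows.

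The lysosomal list had 12 of 27 genes higher and none lower, where 12.1% of all genes were higher and 10.6% lower. Its median was 0.13, and -0.61 for OP9-DL1 over OP9-GFP. Ctsl, cathepsin L, read 10.20 on all 3 OP9-GFP arrays, 10.74, 10.81 and 10.70 with Compound E and 9.56, 9.54 and 9.70 on OP9-DL1, and it rose by 0.56. Ctsa, cathepsin A, rose by 0.34. Their other probe sets moved further, 1.15 for Ctsl and 0.95 for Ctsa. Lgmn, the asparagine-specific protease legumain, rose by 0.64 and stood far lower on OP9-DL1, at 5.44, 5.32 and 5.51 against 7.73, 7.62 and 7.42 on OP9-GFP. Mcoln1, the lysosomal calcium channel, rose by 0.49 from 9.14, 9.19 and 9.03 to 9.66, 9.79 and 9.39. Tfeb (0.56) and Tfe3 (0.30), the transcription factors that drive lysosomal genes, were named after their values were seen and rose too.

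The factors of the TFEB family bind CACGTG, the core of the element shared by lysosomal genes, and the promoter of Mcoln1 is shown for that reason. Capitals mark CACGTG, which reads the same on both strands, in the 250 bases upstream of the gene in GRCm38.p6, chr8:3500269-3500518 on the plus strand, 5′ to 3′.

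Mcoln1: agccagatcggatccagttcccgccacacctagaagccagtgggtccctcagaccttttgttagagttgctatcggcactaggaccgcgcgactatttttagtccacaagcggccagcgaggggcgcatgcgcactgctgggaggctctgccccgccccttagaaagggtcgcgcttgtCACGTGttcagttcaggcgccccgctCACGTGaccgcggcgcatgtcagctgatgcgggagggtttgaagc

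There were 2 matches in this window. By the first listed window of each gene, 6 of 22 lysosomal genes held at least 1, as did 6.02% of all windows. Ctsa and Lgmn, not among the 6, held a match in a further listed window only. The RBPJ letters TGGGAA, searched on both strands, stood in the first listed window of 3 of 9 Notch targets and in 21.6% of all windows. They were not in the window of Nrarp.

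Of 19 cholesterol synthesis genes 9 rose and none fell, with a median of 0.20, where 12.1% of all genes rose and 10.6% fell. Mvd, which makes isopentenyl diphosphate from mevalonate diphosphate, read 8.37, 8.40 and 8.26 on OP9-GFP, 9.21, 9.36 and 9.08 with Compound E and 7.91, 7.71 and 7.61 on OP9-DL1. The rise was 0.87 ± 0.09 (SE), without overlap. Pmvk, the enzyme one step before it, rose by 0.52, with a difference of -0.09 between the untreated feeders. The sterol demethylase gene Cyp51 rose by 0.38 and Sc5d, a late sterol desaturase, by 0.45, or 0.29 with its probe sets averaged. Hmgcs1 (-0.06), Sqle (0.05) and Idi1 (-0.02), named after their values were seen, did not pass the test. For OP9-DL1 over OP9-GFP the list median was 0.00.

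Of 22 ribosome biogenesis and MYC target genes 12 fell and none rose, where 10.6% of all genes fell and 12.1% rose. The list median was -0.27, beside the fall of Myc itself. Nolc1, a nucleolar phosphoprotein, read 11.42, 11.41 and 11.53 on OP9-GFP, 10.78, 10.53 and 10.92 with Compound E and 11.54, 11.51 and 11.63 on OP9-DL1, and it fell by 0.71. Dkc1, the pseudouridine synthase dyskerin, fell by 0.48, Nop58, a core protein of small nucleolar particles, by 0.47, and Wdr12, needed to mature the large ribosomal subunit, by 0.46, or by 0.27 with its probe sets averaged. In the values as deposited all 22 differences were negative, called or not, down to -0.06 for Bop1 and Rrp9, where Bop1 was -0.34 and called with its probe sets averaged.

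Of 25 DNA replication genes 11 fell, none rose and 14 did not pass the test, with a median of -0.18, where 10.6% of all genes fell. Rrm1, a subunit of ribonucleotide reductase, read 9.96, 10.02 and 9.89 on OP9-GFP, 9.56, 9.54 and 9.55 with Compound E and 9.85, 9.84 and 9.88 on OP9-DL1. The thymidine kinase gene Tk1 fell by 0.51, the polymerase α gene Pola1 by 0.42 and Gins1, part of the replicative helicase, by 0.37. With probe sets averaged Pola1 fell by 0.22 and Rrm1, which fell by 0.41 in the brightest probe set, by 0.25. Without OP9-GFP replicate 1, 7 replication genes were called, and 7 with no intensity trend. Among 24 mitosis genes 10 fell, none rose and 14 did not pass the test, with a median of -0.11. There were 6 called without that array and 5 with no trend. Ccna2, cyclin A2, read 11.27, 11.30 and 11.36 on OP9-GFP and 10.98, 10.95 and 11.02 with Compound E, and Nusap1, a spindle protein, fell by 0.35, or by 0.21 with its probe sets averaged. Tpx2, another spindle protein, fell by 0.28 by its brightest probe set and differed by 0.09 (adjusted p = 0.497) with its probe sets averaged.

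The list of immediate early and stress genes had 11 of 23 higher and 5 lower (12.1% and 10.6% of all genes), and its median was 0.18. Ier3, an early response gene, read 10.18, 10.13 and 10.10 on OP9-GFP, 11.03, 10.93 and 10.95 with Compound E and 10.71, 10.71 and 10.82 on OP9-DL1. Hmox1, heme oxygenase 1, rose by 0.69 and Atf3, a stress transcription factor, by 0.55, both lower on OP9-DL1 than on OP9-GFP (-0.55 and -1.14). Egr2, a growth factor response gene, went the other way and fell by 0.58 from 9.60, 9.56 and 9.65 to 9.12, 8.99 and 8.96, with 10.84, 11.01 and 10.75 on OP9-DL1. Of 19 p53 response genes 4 rose and 5 fell (12.1% and 10.6% of all genes), with a median of 0.11. Fas, the death receptor, rose by 0.98 from between 7.95 and 8.06 to 8.93, 9.09 and 8.93, and read 6.42, 6.39 and 6.85 on OP9-DL1. Sesn1, a sestrin, fell by 0.46 and Aen, an apoptosis-enhancing nuclease, by 0.39. The p53 list therefore had no common direction. Of 25 oxidative phosphorylation genes 4 fell and none rose, with a median of -0.03, where 10.6% of all genes fell and 12.1% rose. Ndufa9, of complex I, fell by 0.20. Of 19 alternatives the small fall of Cycs (-0.16) was called in 17, and those of Sdha (-0.13) and Atp5g1 (-0.13) in only 7 each. Their limma adjusted p rose up to 0.323, 0.178 and 0.418.

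Feeder and fat cell genes were read in the same way. Of 28 stromal genes 5 were higher and 10 lower (12.1% and 10.6% of all genes), with a median of -0.02. The mean of the list was 8.31 to 8.39 over the OP9-GFP arrays, 8.26 to 8.40 with Compound E and 9.17 to 9.20 on OP9-DL1. Single genes differed widely around that level. Col3a1, a fibrillar collagen chain, read 7.92, 7.87 and 7.90 on OP9-GFP, 9.18, 9.25 and 8.84 with Compound E and 9.76, 9.70 and 9.88 on OP9-DL1. Fstl1, a secreted follistatin-like protein, rose by 0.57. Mylk, the myosin light chain kinase of contractile cells, fell by 1.04 from 8.85, 8.98 and 8.94 to 7.77, 7.91 and 7.95, while OP9-DL1 stood at 10.24, 10.08 and 10.08. With its probe sets averaged Mylk fell by 0.59. Caveolin 1, Cav1 (-1.30), and the growth factor receptor gene Pdgfra (0.67), named after their values were seen, moved in opposite directions, by -0.77 for Cav1 with 32 added and 0.39 for Pdgfra with its probe sets averaged. These genes moved beside the other changes, and their part in those was not tested. Of 11 adipocyte genes 2 were higher and 3 lower (12.1% and 10.6% of all genes), with a median of 0.18. Scd1, a fatty acid desaturase, rose by 0.86 from 10.78, 10.74 and 10.76 to 11.64, 11.63 and 11.60, while the difference for OP9-DL1 was -0.03. Lpl, lipoprotein lipase, fell by 0.40, Cebpa, a factor of fat and myeloid cells, by 0.37, and Retn, resistin, rose by 0.53 from close to background, or by 0.17 with 32 added.

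**Figure D5:**
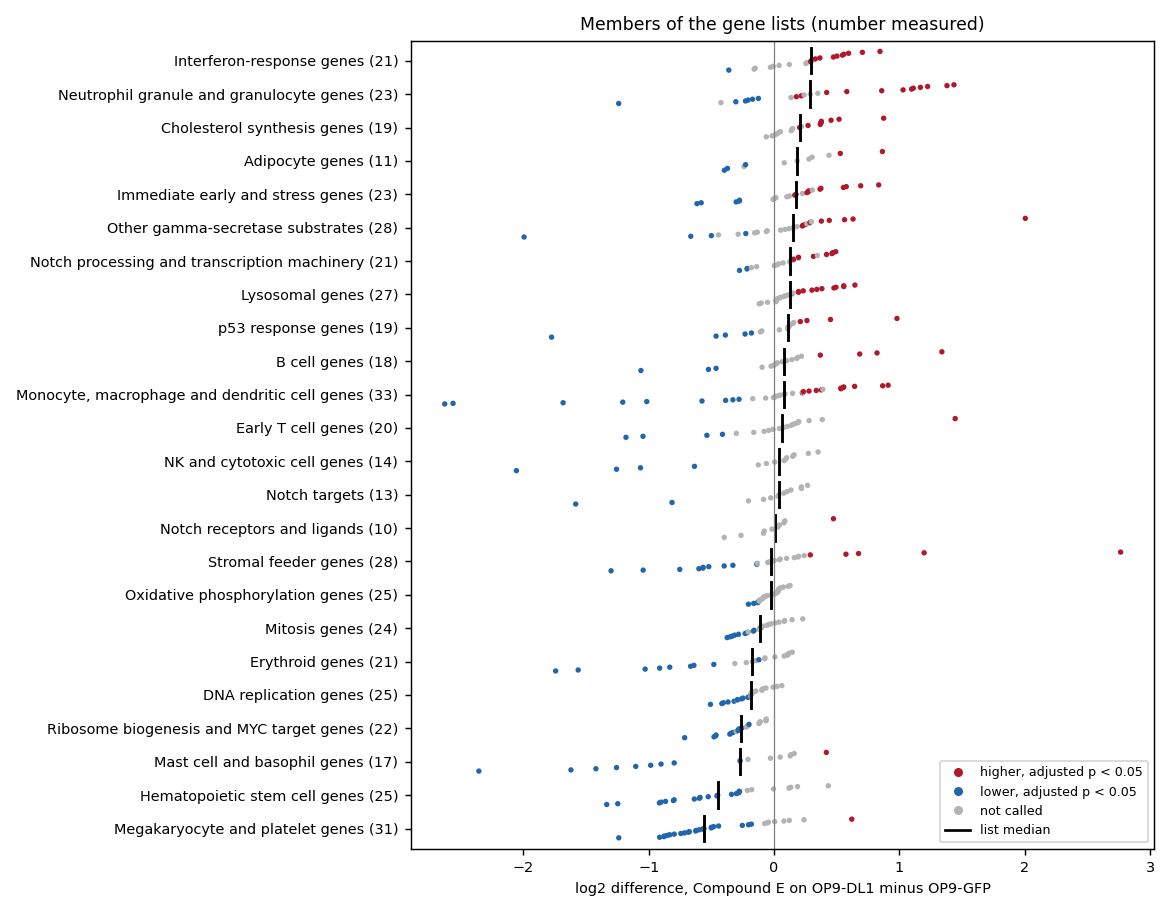
Log2 difference between Compound E on OP9-DL1 and OP9-GFP (x axis) for every measured member of the 24 gene lists (y axis, number measured in brackets, lists sorted by median); red and blue points have a limma adjusted p below 0.05 and black bars are list medians. Medians run from -0.56 for megakaryocyte genes to 0.30 for interferon-response genes, and the macrophage and stromal lists spread to both sides.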

How the data were processed

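Total RNA from 9 mouse cultures was measured on single-colour oligonucleotide arrays. Per the labels' protocols, 25 ng of RNA per condition was amplified and biotin-labelled. The values deposited by the authors are on a log2 scale, with 1 per array for each probe set. MAS5 and GCRMA 2.4.1 stand in the submitters' processing notes without their role or order, so the step that made the log2 values is unknown. If background was adjusted and dim values shrunk, folds against dim groups would be understated. Of 45101 probe sets, 34945 had 1 gene symbol in the platform annotation, 932 several and 9160 none, and 64 were controls. Entrez IDs gave the present symbol for 34741. For each of 18193 genes the probe set with the highest mean over the 9 arrays was used. No genome build was needed for the values, and promoter windows came from RefSeq (GRCm38.p6), with 96 of 121 named genes matched.

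The test was limma 3.58.1 in R 4.3.3 (lmFit, then eBayes with its trend on intensity) on all 9 arrays in one fit, contrast OP9-DL1 with Compound E minus OP9-GFP, adjusted by Benjamini-Hochberg over 18193 genes at 0.05, with no covariate, filter or further normalization. The procedure was tested on data simulated with independent normal noise and without equal values, so that test cannot vouch for the calls made here. SE is from the model, and SD is between the 3 arrays of a group. The number of arrays limits the precision. Exactly equal values stood on 2 or 3 arrays for 11.2% of genes on OP9-GFP and 5.48% with Compound E; the reason is not given in the labels. Same-numbered arrays correlated in their deviations by -0.016, 0.104 and 0.119, and arrays of other numbers by -0.144 to 0.055. Whether the numbers pair the samples is not known, and they were not taken as pairs.

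The members and the 24 lists (10 to 33 measured genes) were chosen with earlier results of these data known. Named genes are the 10 largest rises and 10 largest falls among called genes without overlap between groups, above background in the higher group and without clone-like symbols. All Notch receptors, ligands and targets were added, and at most 4 genes of smallest p per remaining list. Others are said to be named after their values were seen. Background was set by bacterial probe sets. The 20 alternatives covered scaling, filters, probe sets, the model and arrays left out.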

Additional observations from a re-analysis of the deposited data

How the results depend on the processing

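The counts of genes ran from 1614 to 2478 higher and from 1445 to 1937 lower when each array was left out in turn, and those changed at least 2-fold from 110 to 125 higher and from 120 to 147 lower. Over all 45101 probe sets, 3713 were higher and 4841 lower, 171 and 587 of them at least 2-fold. With 32 added to the linear values 52 genes were at least 2-fold higher and 39 lower. There were 71 such lower genes among those above the median brightness and 84 with probe sets averaged. The share of higher among called genes was 53.4%, and 47.4% with quantile normalization, 56.6% with arrays centred on their medians and 43.4% over all probe sets. Among genes with no equal values 1 Notch target was lower, since Nrarp is left out there; the other alternatives gave 2 or 3. Replication genes called lower numbered 7 with no intensity trend and 7 to 11 with an array left out, and mitosis genes 5 and 6 to 11. Tpx2 turned from -0.28 to 0.088 with probe sets averaged. With the replicate number as a block 2101 genes were higher and 1871 lower, and of the named genes only Sdha, Atp5g1 and Ms4a3 lost their calls. Whether the numbers pair the samples is not known. For the counts of genes and of the members of the main lists, 333 values under alternatives stayed within 1.5 times the reported count and 13 did not. Among the remaining counts, the list medians and the named genes, 3205 values kept their reading. There 106 counts or medians moved, 26 values lost a call, 4 gained one and 1 changed sign. Signal over background limits what can be read from genes near 3.64.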

Other observations

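The genes that follow are in none of the lists and were picked after their values were seen because they rose with Compound E, so no count or theme is drawn from them. Saa3, an acute phase protein, had group means of 10.43 on OP9-GFP, 12.16 with Compound E and 7.49 on OP9-DL1, a rise of 1.74 (limma adjusted p = 2.84e-10). Arg2, the mitochondrial arginase, had 8.99, 10.78 and 6.80, and Bst1, a surface enzyme that consumes NAD, had 8.43, 9.97 and 5.31. In these 3 genes the inhibited cultures were the highest group and OP9-DL1 the lowest. Il1b, interleukin 1β, differed in that it was high in both groups on the ligand feeder: 7.88 on OP9-GFP, 9.72 with Compound E and 10.22 on OP9-DL1. The leucine-rich glycoprotein gene Lrg1 rose by 1.98, the phospholipase-like gene Plbd1 by 1.97 and the transcription factor gene Cebpb by 1.05 (2.06-fold), while their differences for OP9-DL1 were -0.33, -0.61 and -0.78.

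Both families below were likewise chosen after their values were seen, and of all genes 12.1% rose and 10.6% fell. Of 7 Schlafen genes, a family linked to interferon and to lymphocyte quiescence, 5 rose (Slfn1, Slfn2, Slfn4, Slfn5 and Slfn8) and none fell, although with probe sets averaged Slfn5 was not called (adjusted p = 0.14, limma) and the rise of Slfn1 went from 1.06 to 0.49. Slfn4 had means of 6.20 on OP9-GFP, 7.35 with Compound E and 3.73 on OP9-DL1. Of 8 GIMAP genes, GTPases of lymphocytes, 3 fell and none rose: Gimap6 by 1.45, Gimap9 by 1.07 and Gimap1 by 0.63, or by 0.70, 0.69 and 0.22 with 32 added to the linear values. Gimap9 stood at 8.83 on OP9-DL1 against 6.40 on OP9-GFP. Ppargc1a, the coactivator of mitochondrial genes, rose from a background mean of 3.17 to 5.14 with Compound E and was at background on OP9-DL1 (3.11). By its brightest probe set the rise was at least 2.83-fold. The difference of 1.97 was 1.06 with probe sets averaged and 0.72 with 32 added, both still called.

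Probe sets without a gene symbol behaved unlike those of named genes. Of 9160 such probe sets 338 (3.69%) were higher and 1367 (14.9%) lower with Compound E than on OP9-GFP in a limma fit over all probe sets, against 2053 (11.3%) and 1826 of the 18193 brightest probe sets of genes. At least 2-fold falls numbered 333 (3.64%) and rises 15. That count of falls was 292 to 391 when any 1 of the 6 arrays was left out. For OP9-DL1 against the same OP9-GFP arrays the 2-fold counts were 180 higher and 98 lower. The median level of these probe sets was 3.48, close to background, against 6.41 for the probe sets of genes. Kcnq1ot1, a long noncoding RNA named after its value was seen, fell by 1.58 from 9.08 on OP9-GFP to 7.49 with Compound E and stood at 9.16 on OP9-DL1, and it fell by 0.94 with its probe sets averaged.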
